A study of Pyrus pyrifolia with 6 samples.

Results

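Genes of auxin transport, signalling and response were examined in the peel of the sand pear Pyrus pyrifolia, cultivar Cuiguan, whose skin russets in part. They are the 207 of 42933 listed genes whose description in the deposited table holds auxin, indole-3-acetic acid or SAUR, with case ignored. The rule used descriptions and no measured value, but it was set with earlier results of these data known. By their descriptions 26 are transporters, 2 receptors, 34 auxin response factors, 29 Aux/IAA genes, 81 SAUR-type genes, 14 auxin-conjugating enzymes and 3 auxin-binding proteins, and 18 are of other kinds. RNA sequencing covered 3 libraries of untreated fruits and 3 of bagged fruits of the same cultivar from 1 orchard, all harvested 95 days after full bloom. Untreated fruits grew without bags. Bagged fruits had a single-layer white paper bag from day 20 and a double-layer yellow-white one from day 40. How many fruits or trees went into a replicate is not stated, so p-values measure the spread between these libraries only.

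Auxin enters plant cells through influx carriers of the AUX/LAX family and leaves them through PIN efflux carriers and some ABC transporters. In the nucleus it binds F-box receptors together with Aux/IAA repressors, which are then degraded, and this frees the auxin response factors that bind DNA. Early targets include the Aux/IAA genes, the SAUR genes, whose small proteins promote cell expansion in Arabidopsis, and the GH3 genes, whose enzymes join auxin to amino acids. In fruits auxin is known above all for its part in set and in growth by cell expansion.

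Library totals ran from 15764049 to 19546285 counts. On the first principal component of all tested genes, untreated replicate 3 (-24.0) lay nearer to the bagged libraries (40.1 to 50.3) than untreated replicates 1 and 2 did (-52.0 and -59.8). Marker lists for the cells of a peel gave summed levels, in CPM (counts scaled to a common library size after TMM normalization), that did not all stay level. The 13 genes of the cork list summed to 187 to 314 CPM in untreated and 22.9 to 50.1 CPM in bagged libraries. LOC103940128 and LOC103940129 entered it by wording only, as probable 1-acyl-sn-glycerol-3-phosphate acyltransferase 5 genes. They had at most 2.72 CPM in any library and were not tested. The 27 genes of epidermis and cuticle summed to 170 to 195 and 205 to 275 CPM, with 2 MERISTEM L1-like genes and 1 ECERIFERUM 3-like gene at 0 in every library. The 40 flesh genes summed to 901 to 980 and 1092 to 1176 CPM, with 11 sugar transporter genes at 0. One sorbitol dehydrogenase-like gene, LOC103960508, had 265, 301 and 348 CPM in untreated and 438, 469 and 397 CPM in bagged replicates. Of 19 tested flesh genes, 12 had a positive and 7 a negative log2 fold change of bagged over untreated, and 0 passed with edgeR. The 12 phloem genes summed to 48.6 to 118 and 52.4 to 58.0 CPM, with 2 PHLOEM PROTEIN 2-LIKE A9 genes at 0. The untreated range came mostly from 1 SIEVE ELEMENT OCCLUSION B-like gene, LOC103938158 (68.7, 3.66 and 27.6 CPM, against 4.36, 1.89 and 2.20 CPM in bagged replicates). The 12 genes of the secondary wall summed to 0.56 to 1.91 and 0.575 to 1.03 CPM, with 2 fasciclin-like arabinogalactan protein 12 genes at 0. The part of these cell types in the results for auxin genes was not tested, and in peel RNA fewer cells of a type and less RNA per cell cannot be told apart.

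Few auxin genes passed the test between bagged and untreated skin. Of the 122 members with enough counts to be tested, 1 rose and 2 fell in bagged skin. The threshold was a p-value below 0.05 from edgeR's quasi-likelihood test after Benjamini-Hochberg adjustment over all 25139 tested genes. The calls are 2.46% of the members, beside 2.67% of all tested genes (0.971% higher and 1.69% lower). The calls were 1 Aux/IAA gene, of 21 tested, and 2 SAUR-type genes, of 41 tested. No tested transporter (15), receptor (2), response factor (33), conjugating enzyme (1), auxin-binding protein (2) or gene of another kind (7) passed. At an unadjusted edgeR p below 0.05 there were 4 transporters, 1 receptor, 3 response factors and 1 conjugating enzyme, and DESeq2 called 3 transporters and 1 conjugating enzyme in these classes. The median of the log2 fold changes, bagged over untreated, was -0.03 over the tested members and -0.01 over all tested genes. At an unadjusted p below 0.05 there were 19 members, 7 higher and 12 lower (15.6%, beside 15.9% of all genes, of which 8.21% higher and 7.71% lower). The CPM of the groups did not overlap for 22 members (18.0%, beside 21.7% of all genes). The unadjusted 95% interval of the log2 fold change lay within -1 and 1, a change of less than 2-fold in either direction, for 64 members (52.5%, beside 72.5% of all genes). The remaining 85 members were not tested, with at most 76 counts over the 6 libraries, and 34 of them had no count in any library.

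**Figure D1:**
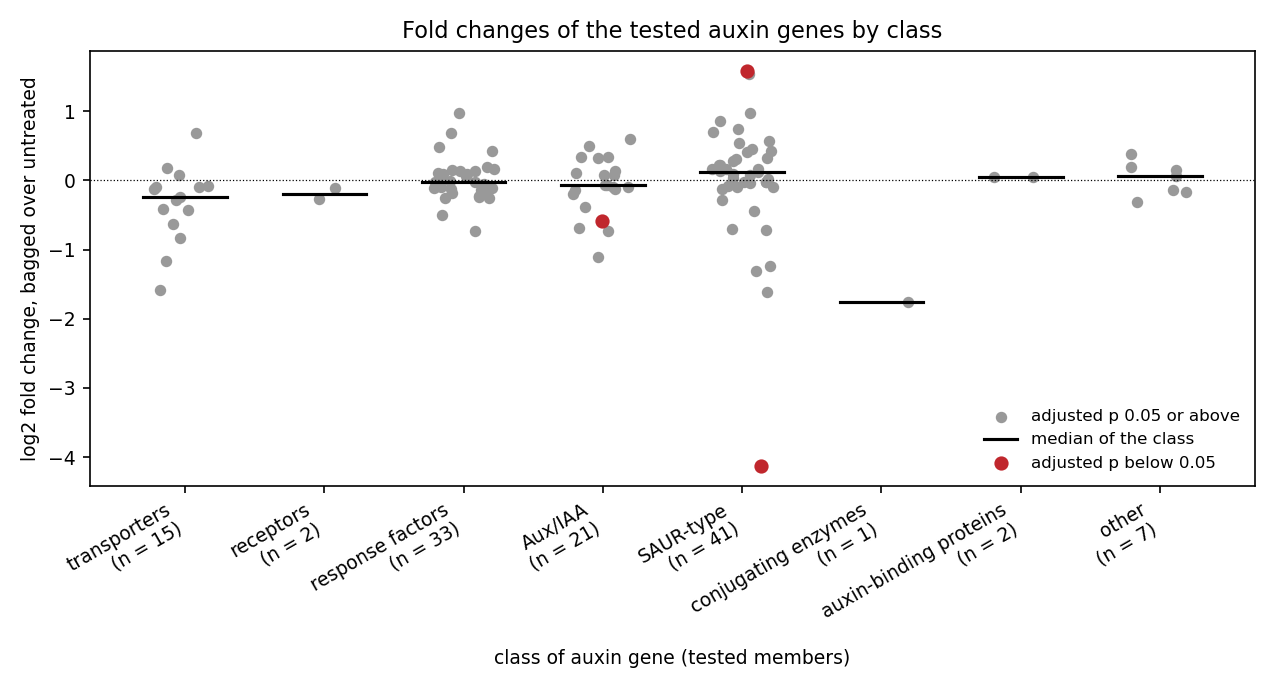
Log2 fold change of bagged over untreated skin (vertical axis) for each of the 122 tested auxin genes by class (horizontal axis), with the class median as a bar and genes with an adjusted p below 0.05 in red. Most points lie near 0, the 3 red points are 2 SAUR-type genes and 1 Aux/IAA gene, and the widest spread is in the SAUR-type class (-4.13 to 1.59).

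Most transporters had lower values under bags, but none passed the test. Of 15 tested, 12 had a negative log2 fold change and 3 a positive one, with a median of -0.23. Over all 25139 tested genes 12980 were negative and 12159 positive. At an unadjusted edgeR p below 0.05 there were 3 lower transporters and 1 higher, beside 7.71% lower and 8.21% higher of all tested genes. The higher one, named after its value was seen, was the influx carrier gene LOC103956683, auxin transporter-like protein 3, at a log2 fold change of 0.69. Without bagged replicate 2, 10 of 16 tested transporters were negative and 6 positive. Leaving out bagged replicate 3 moved the transporter median to -0.42, and leaving out another library to between -0.30 and -0.22. Influx carriers, described as auxin transporter-like proteins, were the more abundant kind. Of 10 listed, 7 were tested, and their summed level was 146 to 161 FPKM in untreated and 122 to 136 FPKM in bagged libraries. FPKM are the authors' values per gene length, which allow levels of different genes to be compared.

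The influx carrier gene LOC103936499, auxin transporter-like protein 1, had 101, 104 and 107 CPM in untreated replicates 1 to 3 and 80.0, 70.2 and 82.9 CPM in bagged replicates 1 to 3. Each bagged library was below each untreated one, and the log2 fold change was -0.42 ± 0.09 (SE, n = 3 per group; edgeR adjusted p = 0.0515). Copies of auxin transporter-like protein 2, chosen for mention after their values were seen, stood on either side of 0. LOC103942374 had 34.1, 41.0 and 21.6 CPM in untreated and 8.84, 6.98 and 16.3 CPM in bagged replicates (-1.59 ± 0.35, edgeR adjusted p = 0.060). LOC103931178 had 25.2, 18.6 and 26.1 CPM in untreated and 15.4, 11.2 and 12.7 CPM in bagged replicates (-0.83 ± 0.18, edgeR adjusted p = 0.0559). In both copies the groups did not overlap. The most abundant copy, LOC103959573, had 58.8 ± 4.03 FPKM (SD, n = 3) in untreated and 66.6 ± 3.79 FPKM in bagged skin (0.17 ± 0.08, edgeR adjusted p = 0.371).

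Efflux carriers of the PIN type were scarce. Of 14 listed, 6 were tested and 2 had no count, and all 14 together summed to 18.5 to 21.4 FPKM in untreated and 15.3 to 17.5 FPKM in bagged libraries. Most of that came from LOC103947028, an efflux carrier component 3-like gene with a mean of 11.9 FPKM over the 6 libraries (-0.28 ± 0.13, edgeR adjusted p = 0.350). The remaining 5 tested efflux genes averaged 0.324 to 2.44 FPKM, and at that depth their log2 fold changes had SEs of 0.31 to 0.55.

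The transporters with the highest CPM were the long BIG-like genes, whose product is needed for auxin transport in Arabidopsis. LOC103962729 had 273, 339 and 338 CPM in untreated and 341, 252 and 302 CPM in bagged replicates, and LOC103966794 had 261, 312 and 313 CPM and 323, 239 and 268 CPM. The groups overlapped in both, with log2 fold changes of -0.08 ± 0.13 and -0.09 ± 0.13 (edgeR adjusted p = 0.821 and 0.793).

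**Figure D2:**
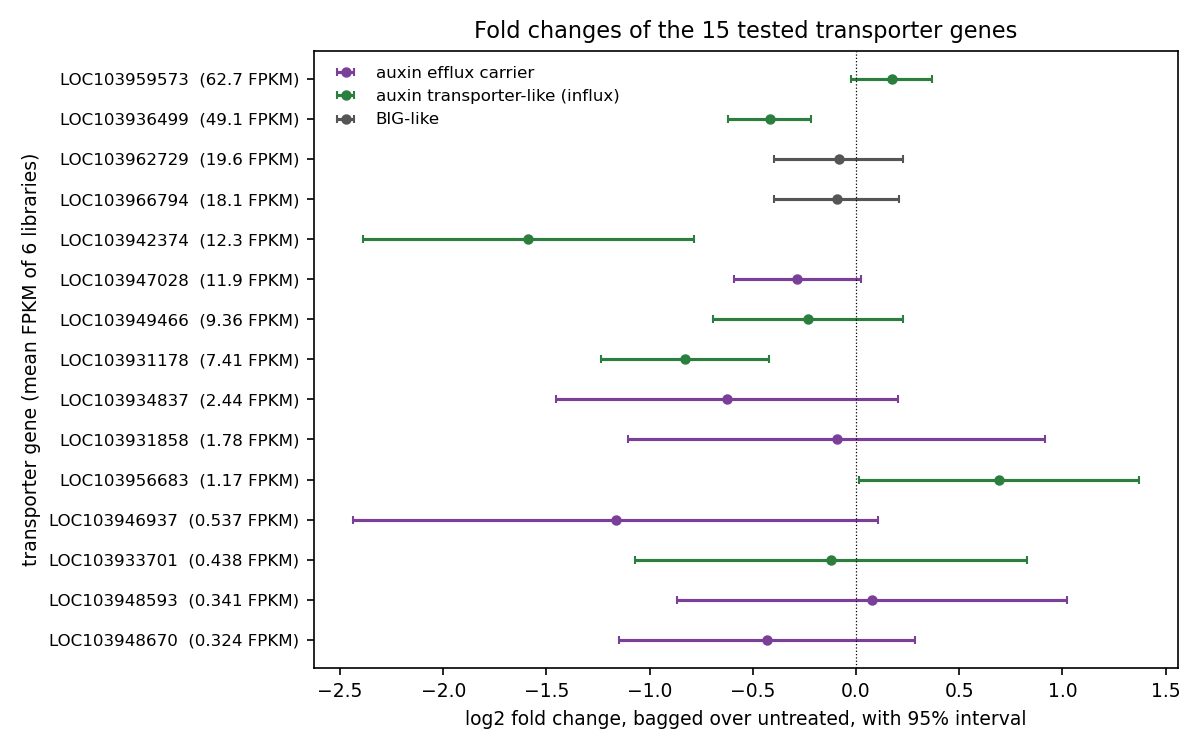
Log2 fold change of bagged over untreated skin with its unadjusted 95% interval (horizontal axis) for the 15 tested transporter genes, ordered by mean FPKM over 6 libraries (vertical axis), with influx carriers in green, efflux carriers in purple and BIG-like genes in grey. Influx genes LOC103936499, LOC103931178 and LOC103942374 lie left of 0, the most abundant gene LOC103959573 lies at 0.17, and intervals widen towards the scarce genes.

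The 2 F-box receptor genes among the members were measured with small errors and neither passed. Receptor genes of the TRANSPORT INHIBITOR RESPONSE 1 type do not name auxin and fell in the other pathway list. They are LOC103962651, LOC103963931 and LOC103967427, with log2 fold changes of -0.10, 0.21 and -0.07 in the authors' deposited table, and none passed with edgeR. LOC103966576, AUXIN SIGNALING F-BOX 2, had 105, 88.5 and 84.2 CPM in untreated and 78.6, 70.4 and 80.8 CPM in bagged replicates. The bagged libraries of LOC103966576 all lay below the untreated ones, by a log2 fold change of -0.27 ± 0.11 (SE, n = 3; edgeR adjusted p = 0.265). Its relative LOC103936090 had 48.8, 46.3 and 37.1 CPM and 41.9, 34.7 and 45.7 CPM, with overlapping groups (-0.11 ± 0.14, edgeR adjusted p = 0.763).

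Auxin response factors, the DNA-binding regulators of the pathway, had no member past the threshold. Of 34 listed genes 33 were tested, and their summed level was 791 to 816 FPKM in untreated and 762 to 858 FPKM in bagged libraries. Log2 fold changes ran from -0.73 to 0.98 with a median of -0.02 and a median SE of 0.14, beside 0.17 over all tested genes. For 24 of the 33 (72.7%, beside 72.5% of all tested genes) the 95% interval lay within -1 and 1.

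The most abundant response factor, LOC103958273, an auxin response factor 2-like gene, had 615, 615 and 730 CPM in untreated and 757, 642 and 551 CPM in bagged replicates. Its groups overlapped (-0.01 ± 0.13, 95% interval -0.32 to 0.30, edgeR adjusted p = 0.988). LOC103959396, related to the activator auxin response factor 19, had 298, 332 and 310 CPM in untreated and 308, 283 and 264 CPM in bagged replicates (-0.14 ± 0.09, edgeR adjusted p = 0.511). The smallest p of the class was that of LOC103932993, a scarcer auxin response factor 2-like gene with 2.66, 3.46 and 3.35 CPM in untreated and 2.06, 1.49 and 2.14 CPM in bagged replicates (-0.73 ± 0.26, edgeR adjusted p = 0.214). Response factor 2-like genes thus ranged from 180 FPKM for LOC103958273 to 1.48 FPKM for LOC103929963, as means over the 6 libraries.

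Aux/IAA genes, which code for the repressors that auxin removes, had 1 of 21 tested members lower in bagged skin and none higher. That gene was LOC103931047, IAA26-like, on scaffold NW_008988532.1 from 13832 to 17444. It had 97.5, 89.3 and 76.2 CPM in untreated and 53.1, 58.9 and 63.7 CPM in bagged replicates, so that the groups did not overlap. It fell by 0.58 ± 0.11 on the log2 scale (SE, n = 3; edgeR adjusted p = 0.0449). This call held without untreated replicate 3 (edgeR adjusted p = 0.0310) and was lost without any other library (0.0719 to 0.146). The other IAA26-like genes were nearly silent, with 64 counts in all for LOC103941083 and 10 for LOC103941082.

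The most abundant repressor genes did not pass. LOC103929398, IAA27-like, had 752 ± 30.9 FPKM (SD, n = 3) in untreated and 799 ± 44.0 FPKM in bagged skin (0.08 ± 0.08, edgeR adjusted p = 0.689). LOC103954392, IAA16, had 410 ± 38.2 and 375 ± 27.5 FPKM (-0.13 ± 0.10, edgeR adjusted p = 0.573). The summed level of all 29 Aux/IAA genes was 2022 to 2179 FPKM in untreated and 2048 to 2303 FPKM in bagged libraries. One abundant gene with groups that did not overlap, LOC103945995, AUX28-like, was chosen for mention after its values were seen. It had 173, 174 and 174 CPM in untreated and 190, 261 and 203 CPM in bagged replicates and did not pass (0.33 ± 0.12, edgeR adjusted p = 0.240).

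SAUR-type genes, of which 41 of 81 were tested and 20 had no count, held both the strongest fall and the only rise among the members. LOC103929026, described as indole-3-acetic acid-induced protein ARG7-like, lies on scaffold NW_008988471.1 from 80600 to 81671. It had 14.2, 24.7 and 12.6 CPM in untreated and 1.03, 0.744 and 1.15 CPM in bagged replicates, from 203 to 486 counts down to 13 to 22. The untreated libraries were all far above the bagged ones, and the gene fell by 4.13 ± 0.33 on the log2 scale (edgeR adjusted p = 0.0058). In the cork list 7 of 9 tested genes fell, beside 1.69% of all tested genes. The 13 listed genes summed to 231, 314 and 187 CPM in untreated and 22.9, 29.0 and 50.1 CPM in bagged replicates. The part of cork in the fall of LOC103929026 was not tested. The call of LOC103929026 held with each of the 6 libraries left out in turn (edgeR adjusted p 0.00511 to 0.0321).

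LOC103964554, SAUR36-like, on scaffold NW_008988310.1 from 536045 to 537302, rose. Its relative SAUR36 in Arabidopsis is known from leaf senescence. It had 4.57, 3.46 and 5.27 CPM in untreated and 12.1, 10.8 and 17.0 CPM in bagged replicates, with no overlap, a log2 fold change of 1.59 ± 0.23 (SE, n = 3; edgeR adjusted p = 0.0167). Without untreated replicate 1 or 2 or bagged replicate 1 the call was lost (edgeR adjusted p = 0.0611, 0.0511 and 0.0594). No other member lay within 100 kb of any of the 3 called genes.

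All 5 tested ARG7-like genes had negative log2 fold changes, from -4.13 to -0.03, beside 12980 of all 25139 tested genes. With edgeR 4 of the 5 did not pass, and DESeq2 called 2. Leaving out bagged replicate 1 or untreated replicate 2 gave 4 negative and 1 positive. The most abundant ARG7-like gene, LOC103967960, had 63.8, 91.4 and 59.8 CPM in untreated and 59.4, 69.9 and 81.7 CPM in bagged replicates (-0.03 ± 0.18, edgeR adjusted p = 0.964). LOC103966953, chosen after its values were seen, had 22.5, 23.4 and 14.5 CPM and 12.3, 11.7 and 13.0 CPM (-0.71 ± 0.19, edgeR adjusted p = 0.111).

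Nearest to the threshold among the other SAUR-type genes, and also chosen after their values were seen, were 1 gene lower and 1 gene higher in bagged skin. LOC103964518, SAUR72-like, had 4.74, 5.04 and 3.59 CPM in untreated and 1.63, 0.858 and 1.88 CPM in bagged replicates (-1.61 ± 0.33, edgeR adjusted p = 0.0504). LOC103966715, auxin-induced protein 15A, had 7.52, 5.19 and 5.14 CPM and 9.62, 17.3 and 24.6 CPM (1.53 ± 0.34, edgeR adjusted p = 0.0623). The most abundant SAUR-type gene, LOC103967961, 15A-like, had 174 ± 49.3 FPKM (SD, n = 3) in untreated and 173 ± 20.4 FPKM in bagged skin (-0.02 ± 0.20, edgeR adjusted p = 0.980).

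**Figure D3:**
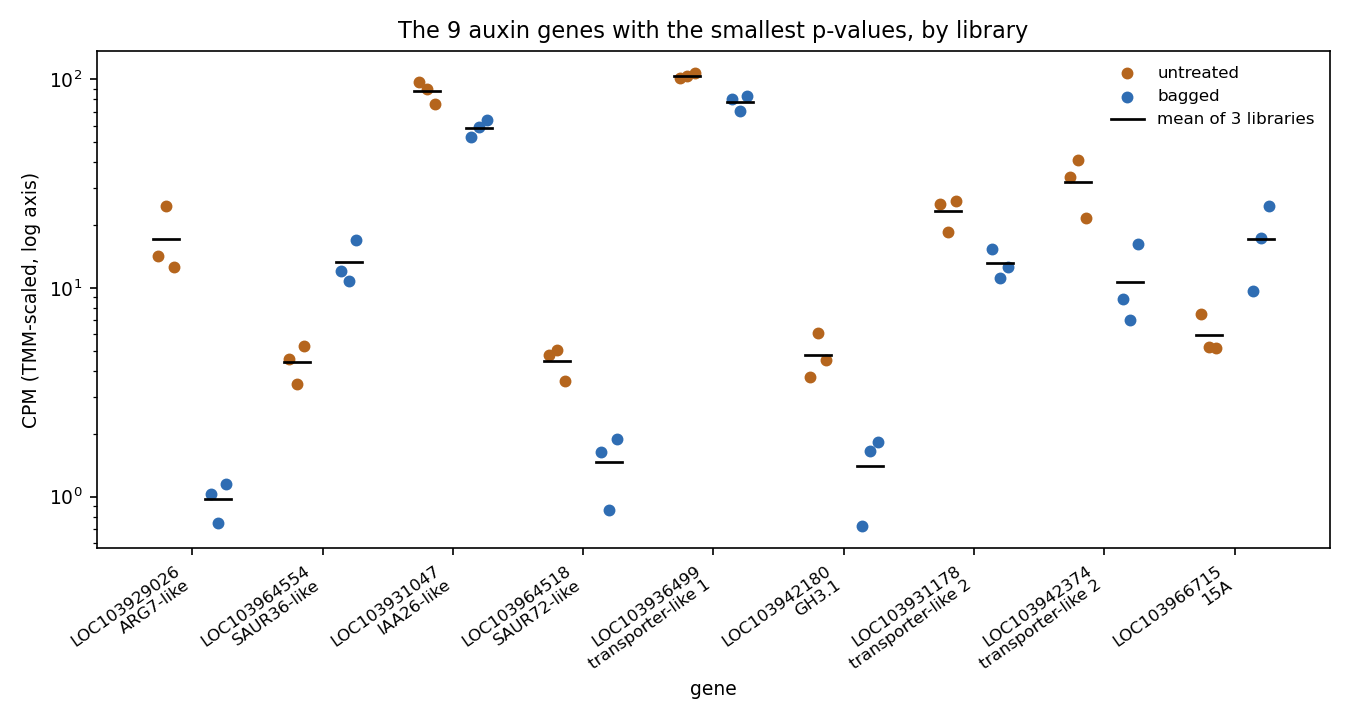
CPM on a log axis in each untreated (brown) and bagged (blue) library for the 9 auxin genes with the smallest p-values, with the mean of 3 libraries as a bar. The groups do not overlap in any of the 9, beside 21.7% of all tested genes, but the choice by p-value favours such genes. The first 3 genes from the left are those that passed the test.

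SAUR-type genes varied widely between libraries of the same group. The SE of their log2 fold changes had a median of 0.36, beside 0.14 for response factors, and 14 of 41 (34.1%) had a 95% interval within -1 and 1. A dispersion more than 2 times the trend at their level was seen in 16 of 41 (39.0%), beside 7.27% of all tested genes. These were 12 of the 17 tested 15A-type genes, 1 of 5 SAUR72-like genes, 0 of 5 ARG7-like genes and 3 of the other 14. Many of them were high or low in the same libraries. Untreated replicate 2 held the highest of the 3 untreated values in 29 of 41 SAUR-type genes (70.7%), beside 33.2% of all tested genes.

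Relative to the mean of each gene over the 6 libraries, on a log2(CPM + 0.5) scale, the median SAUR-type gene lay at 0.45 in untreated replicate 2, at 0.25 in bagged replicate 2 and at 0.22 in bagged replicate 3. It lay at -0.14, -0.33 and -0.28 in untreated replicates 1 and 3 and bagged replicate 1. High and low libraries thus occurred in both groups, whereas the response factors had medians between -0.08 and 0.09 in every library. The summed SAUR-type level was 597, 907 and 515 CPM in untreated and 606, 787 and 815 CPM in bagged replicates. Over the class the log2 fold changes had a median of 0.13. Leaving out untreated replicate 2 gave 0.38, leaving out bagged replicate 1 gave 0.31, and the other 4 cases gave 0.01 to 0.04.

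In a pair of SAUR-type genes untreated replicate 2 stood apart from the other untreated libraries. LOC103950232, SAUR72, had 17.9, 47.3 and 16.2 CPM in untreated and 47.3, 43.7 and 46.1 CPM in bagged replicates (0.75 ± 0.37, edgeR adjusted p = 0.386). LOC103967982, 15A-like, had 7.52, 35.1 and 9.92 CPM and 22.1, 34.7 and 29.1 CPM (0.70 ± 0.53, edgeR adjusted p = 0.578). Both were chosen after their values were seen, and both passed without untreated replicate 2, with log2 fold changes of 1.42 and 1.72 (edgeR adjusted p = 0.00828 and 0.0311).

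**Figure D4:**
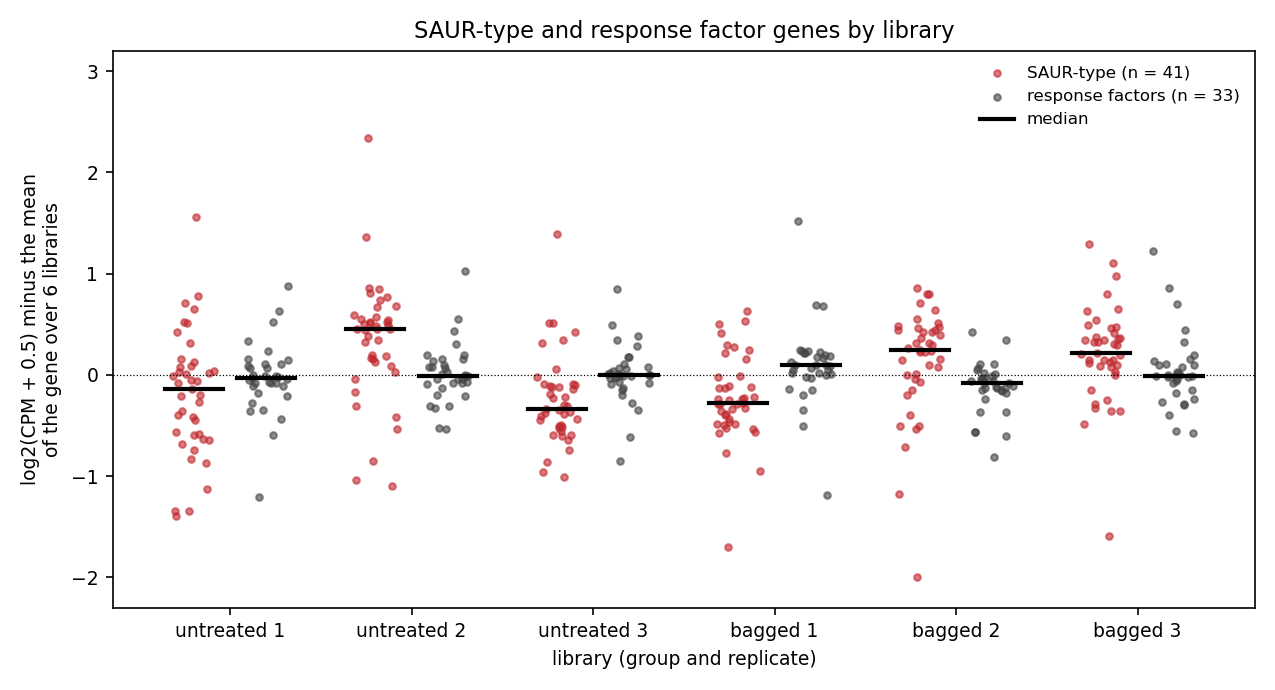
Log2(CPM + 0.5) of each tested SAUR-type gene (red, n = 41) and response factor gene (grey, n = 33) minus its own mean over the 6 libraries (vertical axis), by library (horizontal axis), with medians as bars. The SAUR-type median is highest in untreated replicate 2 (0.45) and lowest in untreated replicate 3 (-0.33), while response factor medians stay between -0.08 and 0.09.

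Many SAUR-type genes lie near each other. Taking members no more than 100 kb apart, 5 runs of at least 3 members, each on a different scaffold, held 36 of the 81 SAUR-type genes, and none of the 31 tested members in these runs passed (edgeR; unadjusted p below 0.05 in 3, DESeq2 0). The longest run, on scaffold NW_008988195.1 from 564395 to 740348, held 18 members, of which 10 were tested. Their log2 fold changes ran from -1.23 to 0.55. A run of 7 on scaffold NW_008988391.1, from 241613 to 398502, held the most abundant SAUR-type genes LOC103967961 and LOC103967960 (-0.03 to 0.97). Close copies in such runs can share reads, and how the authors treated these is not given in the sources used here.

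GH3 genes, whose enzymes inactivate auxin by conjugation, were almost silent in this peel. Of 14 listed genes 5 had no count, and 13 were not tested, with at most 23 counts over the 6 libraries. The exception, LOC103942180, GH3.1, had 3.76, 6.10 and 4.52 CPM in untreated and 0.726, 1.66 and 1.83 CPM in bagged replicates. Each bagged value was below each untreated one, and the gene missed the threshold (-1.76 ± 0.37, SE, n = 3; edgeR adjusted p = 0.0555).

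Auxin-binding protein genes of the T85 and ABP19a type overlapped between groups. LOC103947537 had 5.44, 6.56 and 4.03 CPM in untreated and 4.48, 6.58 and 5.49 CPM in bagged replicates (0.04 ± 0.25, edgeR adjusted p = 0.956), and LOC103951934 had 5.09, 1.07 and 3.04 CPM and 1.57, 4.69 and 3.24 CPM (0.06 ± 0.58, edgeR adjusted p = 0.978). The most abundant of all members was ARP, an auxin-repressed protein gene of a family linked to dormancy and growth arrest, with 3875 ± 365 FPKM (SD, n = 3) in untreated and 4327 ± 286 FPKM in bagged skin (0.15 ± 0.10, edgeR adjusted p = 0.522). Its relative LOC103944186 had 892 ± 129 and 934 ± 26.2 FPKM (0.06 ± 0.11, edgeR adjusted p = 0.847).

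The authors' deposited table lists an adjusted p below 0.05 for 10 of the 168 members with a value there (5.95%), 2 higher and 8 lower. Beside this stand 4.72% of all its genes, 765 higher and 767 lower. The 3 genes called with edgeR are among these 10 members. DESeq2 called 10 of 144 members (6.94%, beside 5.42% of all genes), the same 10 as the authors' deposited table. The log2 fold changes of both were the same for LOC103929026 (-4.133) and LOC103931047 (-0.57667). Both rest on the same counts, so the shared calls are not independent support. The 7 that edgeR did not call are the influx carrier genes LOC103936499, LOC103931178 and LOC103942374, the GH3 gene LOC103942180, and the SAUR-type genes LOC103964518, LOC103966715 and LOC103966953.

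Genes of the pathway whose descriptions do not name auxin held 7 calls, mostly lower in bagged skin. Of 161 such genes 80 were tested, 1 rose and 6 fell (8.75%, beside 2.67% of all genes), and the median over the 80 was -0.15 on the log2 scale. The list was chosen with earlier results of these data known, so its share of calls cannot be read as an excess. The difference from the members was not tested. With 1 library left out the number that fell was 1 (bagged replicate 1), 2 (untreated replicate 1 or bagged replicate 2) or 3 (any other), and the number that rose was 1 without bagged replicate 3, 2 without untreated replicate 3 and 0 in the other 4 cases.

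Transport genes of this list included 3 of the calls. LOC103965670, ABC transporter B family member 1, whose Arabidopsis relative exports auxin, had 15.6, 13.4 and 15.6 CPM in untreated and 6.54, 5.95 and 5.13 CPM in bagged replicates. It fell by 1.34 ± 0.15 on the log2 scale (SE, n = 3; edgeR adjusted p = 0.00821), a call that held without each of the 6 libraries (0.0187 to 0.0391). Its relative LOC103965492 had 43.1, 29.5 and 37.5 CPM and 22.6, 18.1 and 20.2 CPM and fell by 0.85 ± 0.16 (edgeR adjusted p = 0.0361). That call held when untreated replicate 2 was left out (0.0302) and was lost in the other 5 cases (0.0762 to 0.109). LOC103959162, PIN-LIKES 5-like, of a family that holds auxin in the endoplasmic reticulum in Arabidopsis, had 53.2, 63.0 and 66.6 CPM and 95.0, 84.9 and 92.8 CPM. It rose by 0.58 ± 0.10 (edgeR adjusted p = 0.0338), a call that held only without untreated replicate 3 (0.0400, and 0.0662 to 0.114 without the others).

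LOB domain genes, a family of transcription factors of which some are auxin response factor targets in Arabidopsis, had 3 of 14 tested members lower in bagged skin, beside 1.69% of all tested genes. Log2 fold changes of the 14 ran from -3.02 to 1.84, with 11 negative and 3 positive. LOC103926645, LOB domain-containing protein 1-like, had 1.84 in the authors' deposited table (authors' adjusted p = 0.0304) and did not pass with edgeR. LOC103965813, LOB domain-containing protein 25-like, had 59.5, 38.5 and 45.0 CPM in untreated and 22.9, 19.7 and 15.7 CPM in bagged replicates. It fell by 1.29 ± 0.19 (edgeR adjusted p = 0.0175; 0.0507 and 0.0668 without bagged replicate 1 or 2). LOC103959747, of the same description, had 36.8, 24.8 and 27.2 CPM and 15.2, 13.9 and 8.63 CPM and fell by 1.24 ± 0.24 (edgeR adjusted p = 0.0410), a call lost without each of the 6 libraries (0.0598 to 0.117). LOC103945429, LOB domain-containing protein 12, was scarce, with 1.39, 1.78 and 1.98 CPM and 0.121, 0.114 and 0.366 CPM. It fell by 3.02 ± 0.48 (edgeR adjusted p = 0.0221), a call that held when bagged replicate 3 was left out (0.0231) and was lost in the other 5 cases (0.0560 to 0.0911).

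Among 13 tested TOPLESS-type co-repressor genes, whose proteins work with Aux/IAA repressors, LOC103958351, topless-related protein 4-like, had 41.8, 48.7 and 43.7 CPM in untreated and 32.6, 26.1 and 27.8 CPM in bagged replicates. It fell by 0.63 ± 0.11 (edgeR adjusted p = 0.0329) and lost the call without each of the 6 libraries (0.0507 to 0.102). Of 22 genes of auxin synthesis 4 were tested, all tryptophan aminotransferase-related, and none passed with edgeR (unadjusted p below 0.05 in 2, DESeq2 1). None of the 17 YUCCA-type monooxygenase genes had enough counts for a test, and 11 of them had no count. None of the 12 tested genes of auxin hydrolysis and oxidation passed with edgeR (unadjusted p below 0.05 in 4, DESeq2 2). Their log2 fold changes ran from -1.50 to 2.33, with 7 positive and 5 negative. LOC103950924, IAA-amino acid hydrolase ILR1-like 4, had 2.34 in the authors' deposited table (authors' adjusted p = 1.96e-05) and did not pass with edgeR.

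**Figure D5:**
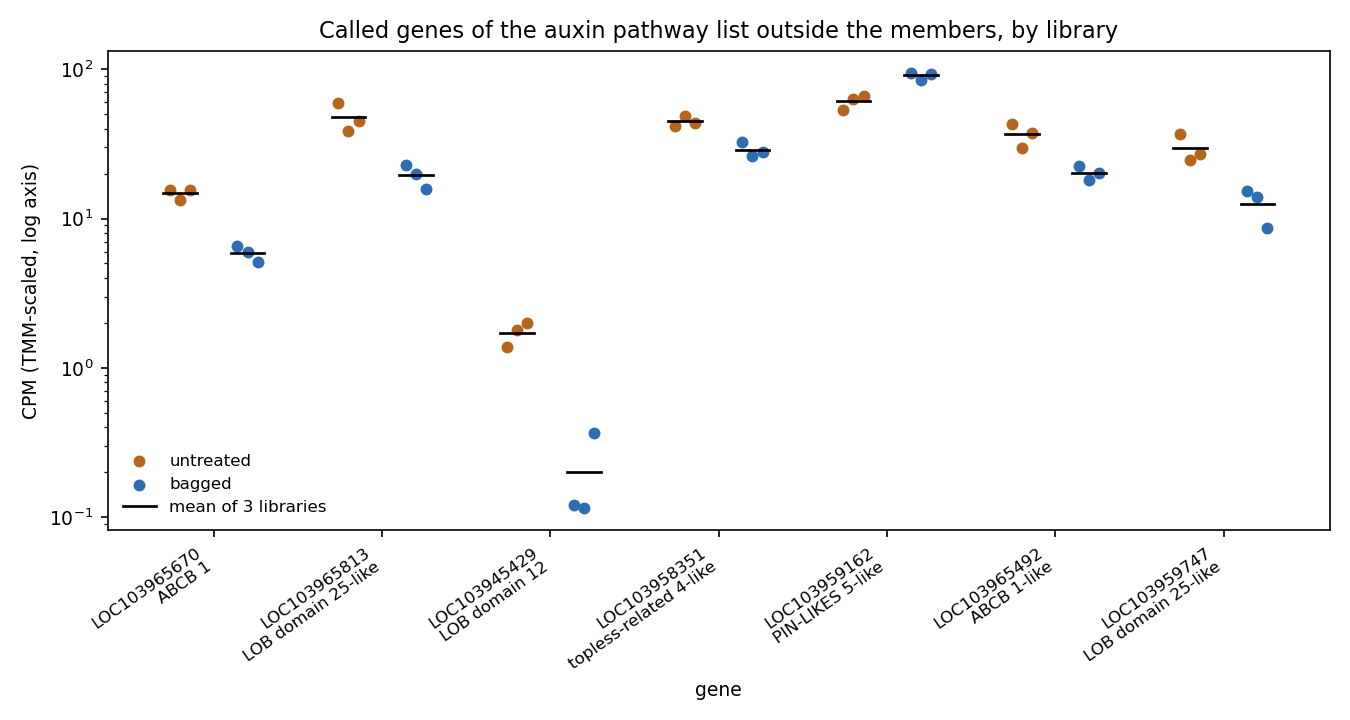
CPM on a log axis in each untreated (brown) and bagged (blue) library for the 7 called genes of the auxin pathway whose descriptions do not name auxin, with the mean of 3 libraries as a bar. The PIN-LIKES 5-like gene is higher in all bagged libraries and the other 6 genes are lower, with no overlap between groups in any of the 7. The choice of called genes favours such separation.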

How the data were processed

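The deposited table gives raw read counts and the authors' FPKM per gene and library, with gene length, per the file headers. HISAT2 is named in the submitters' processing notes. No source used here names the counter, strand setting, genome build or annotation, so scaffold coordinates follow the deposited table. The authors' log2 fold change and adjusted p-value come from the deposited table, with the test not named. For the members called there, they nearly equal the DESeq2 values. The deposited counts went unchanged into edgeR 4.0.16, run under R 4.3.3 (filterByExpr with minimum count 10 and minimum total 15, TMM, quasi-likelihood test, no covariate), tested on simulated data. SE is the fold change over the square root of F, and intervals use the t distribution with the degrees of freedom of the fit. Members and lists were chosen with earlier results of these data known. Named genes were every called member, the 2 most abundant tested members of each class by average log2 CPM, in classes with no call the member with the smallest p, any tested member within 100 kb of a called one, and the called genes of the other pathway list. Alternatives were other scalings, filters, DESeq2 1.42.0, limma-voom (limma 3.58.1), a replicate block and leaving out each library. None of the genes named by the rule above overlaps another listed gene, while 3 of the tested members do. The Pfam-only descriptions stayed in the class of other kinds. No sequences are shown.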

Additional observations from a re-analysis of the deposited data

How the results depend on the processing

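LOC103929026 passed under all 14 alternatives, LOC103964554 under 11 and LOC103931047 under 8. Members called higher (1) numbered 2 with DESeq2 or no low-count filter, and those called lower (2) numbered 8 with DESeq2, 7 with no low-count filter and 5 with upper-quartile factors or library size alone. SAUR-type calls (2) numbered 5 with DESeq2 and 4 with no low-count filter. Transporter calls (0) numbered 3 with DESeq2 or no low-count filter, 2 with upper-quartile factors or library size alone and 1 with the replicate block, and calls of conjugating enzymes (0) numbered 1 with DESeq2, no low-count filter or the block. All genes called numbered 769 higher and 769 lower with DESeq2, against 244 and 426. Other pathway genes called higher (1) numbered 4 with DESeq2, 2 with no low-count filter or limma-voom and 0 with library size alone. Without 1 library, the median log2 fold change of the members ranged from -0.064 to 0.050, members called higher ranged from 0 to 2 and lower from 1 to 4, Aux/IAA calls from 0 to 1, SAUR-type calls from 1 to 3, transporter calls from 0 to 1, other pathway genes higher from 0 to 2 and lower from 1 to 3, and all genes from 70 to 306 higher and 135 to 386 lower. Same-numbered libraries did not deviate together (correlations -0.04, 0.08 and 0.06, and untreated replicate 1 was nearest to bagged replicate 2). With the replicate block 358 genes were higher and 370 lower, and the calls of the Aux/IAA gene LOC103931047 (0 calls left; edgeR adjusted p = 0.0946), LOC103959162 (0.0592) and LOC103958351 (0.0675) were lost, while LOC103942180 passed (0.0378). Uncalled genes near 0 changed sign: LOC103947537 was -0.0097 with library size alone, and LOC103967961 was 0.016 with limma-voom and 0.013 with the block. Without 1 library log2 fold changes ranged from -0.032 to 0.17 for LOC103944186, -0.12 to 0.22 for LOC103947537, -0.36 to 0.65 for LOC103951934, -0.13 to 0.10 for LOC103958273, -0.19 to 0.023 for LOC103962729, -0.22 to 0.0034 for LOC103966794, -0.15 to 0.19 for LOC103967960 and -0.23 to 0.15 for LOC103967961. The cause of these moves was not tested. Depth limits the scarce classes, since 85 members had too few counts for a test.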
